A study of Mus musculus with 4 samples.

Results

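*Comp* neurons are the dorsal root ganglion (DRG) neurons with peptidergic PEP1-like expression in which the cartilage gene *Comp* was detected without *Oprk1* and without a strong *Sprr1a* signal. They were selected on UMI counts (unique molecular identifiers, 1 for each captured RNA molecule) in cells with at least 1500 genes, at most 10% mitochondrial UMIs and at least 5000 UMIs. A cell was a member with at least 1 UMI in at least 3 of the 6 genes *Kcnv1*, *Cldn9*, *Traf3ip3*, *Pcp4l1*, *Capn9* and *Cdhr1*, with at least 1 *Comp* UMI and 0 *Oprk1* UMIs, and with *Sprr1a* at or below 1.72 UMIs per 10000. This gave 1168 cells of the 17836 that passed the cell filter and of 23691 deposited. Of these, 292 came from Male-Sham and 475 from Female-Sham, while Male-CCI gave 172 and Female-CCI 229.

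Peptidergic neurons are small and medium DRG neurons that release the neuropeptides CGRP (from *Calca*) and substance P (from *Tac1*). They carry the capsaicin receptor *Trpv1* and signal noxious heat, chemical and mechanical stimuli, and some subtypes have thinly myelinated axons. *Comp* encodes a secreted matrix protein of the thrombospondin family, best known from cartilage and tendon. *Oprk1* encodes the kappa opioid receptor, and *Sprr1a* is a gene that sensory neurons switch on strongly when their axons are damaged.

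The 4 libraries were made from GFP+ cells sorted from L4-5 DRGs of *Pirt* EGFPf mice on a C57BL/6 background, 7 to 8 weeks old, a knock-in line that expresses membrane-bound GFP from the *Pirt* promoter in place of the *Pirt* coding sequence, so that heterozygous animals of every group, sham included, carry 1 disrupted *Pirt* allele. Surgery was either chronic constriction injury (CCI), in which loose ligatures are tied around the sciatic nerve, on both sides, or sham, and ganglia were taken 7 days later. Each library is a pool of 5 mice and 20 DRGs, and each surgery has 1 male and 1 female library, so p-values measure the spread between 2 pools that also differ in sex. Littermates received the same surgery, and litter and surgery cannot be told apart.

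Members were deeply sequenced, with median UMIs per cell of 66940 (Male-Sham) and 44494 (Female-Sham) after sham, and 74892 (male) and 56846 (female) after CCI, against 29689 to 46046 in other neurons. The 4 deposited libraries held 4019 to 8035 cells and shared 215 to 513 cell barcodes in each pair, of which 0 were shared between members. Satellite glial cell (SGC) markers, 16 genes, had a summed level of 1700 to 2524 CPM (UMIs scaled to 1e6 in all) in members and 2680 to 3417 CPM in other neurons, and 15 or 16 of them were detected in each library. Immune markers summed to 4.37 to 8.19 CPM, with 8 to 11 of 12 genes detected and *Ptprc* at 0 in 3 libraries, and Schwann cell markers summed to 13.3 to 19.7 CPM, with 6 of 7 detected and *Pmp2* at 0 in all libraries. Of the members, 19.2% (male) and 15.2% (female) after sham and 14% (male) and 5.68% (female) after CCI were among the 15% of cells of their library with the highest doublet score.

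The peptidergic label held for the members as a whole. In this and the following sentences, a set of 4 values gives CPM of the summed cells of a group, sham before CCI and within each the male library first. *Calca* was at 14059, 14891, 14213 and 14562 CPM in *Comp* neurons, against 4568, 5461, 4377 and 5022 CPM in other neurons. *Tac1* was at 4142, 4656, 3768 and 4677 CPM against 1870.4, 2286, 1804 and 2346, and *Trpv1* at 190.5, 217, 195 and 208 CPM against 105, 119.8, 125 and 118. For each of these genes the lowest library of *Comp* neurons was above the highest library of other neurons. Other neurons, 9888 cells, are cells at or below the same *Sprr1a* limit with fewer than 3 of the 6 genes, at least 1 *Snap25* UMI and under 3% of UMIs from *Apoe* and *Fabp7*.

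Of 29 measured markers of other DRG classes, 18 were below other neurons with no overlap between libraries and 4 more were lower in each library, while 3 were above without overlap, 1 was higher in each library and 3 went both ways. *Sstr2*, a somatostatin receptor of another peptidergic class, was at 4.96, 5.71, 6.43 and 10.2 CPM against 42.8, 44.8, 31.9 and 31.8 in other neurons. *Th*, the dopamine-synthesis enzyme of C-low-threshold mechanoreceptors, was at 6.22, 6.34, 4.56 and 4.75 CPM against 61.7, 69.3, 47.6 and 61.6, and *Pvalb*, a calcium buffer of proprioceptors, at 3.11, 1.53, 2.47 and 3.24 CPM against 124, 59.3, 151 and 84.9. The 3 above were the itch receptors *Mrgpra3* and *Mrgprx1* and the peptide gene *Cartpt*, and the choline transporter *Slc5a7* was higher in each library. *Mrgpra3* was at 34.5, 25.9, 21.5 and 16.4 CPM against 5.28, 5.36, 2.48 and 1.36 and was highest in a subset of the members described further on. *Mrgprx1* was at 2.87, 2.07, 2.54 and 2.11 CPM against 1.42, 1.26, 1.19 and 1.25, *Cartpt* at 421, 514, 336 and 465 CPM against 197, 269, 167 and 183 and *Slc5a7* at 5.15, 8.37, 7.93 and 9.80 CPM against 3.41, 4.46, 5.03 and 5.66.

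**Figure D1:**
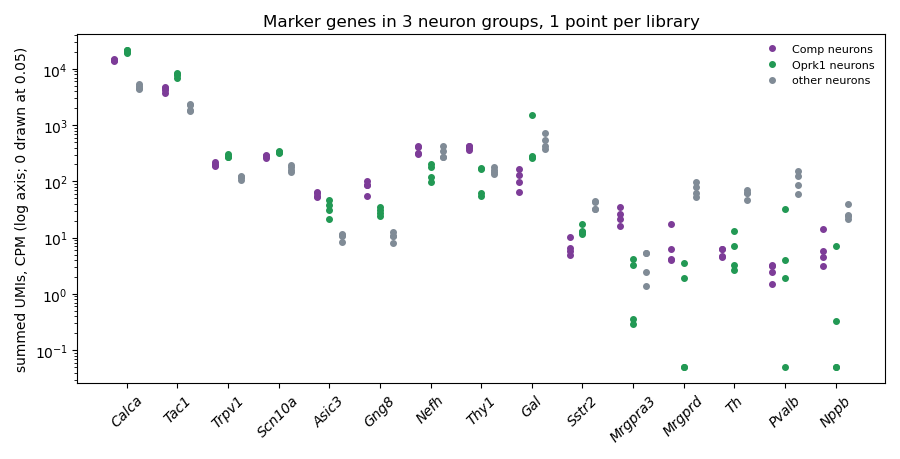
Summed UMIs in CPM (log axis, 0 drawn at 0.05) of 15 marker genes, with 1 point for each of the 4 libraries, in *Comp* neurons, in *Oprk1* neurons and in other neurons. *Calca*, *Tac1* and *Trpv1* of *Comp* neurons lie above those of other neurons in all libraries, while *Sstr2*, *Mrgprd*, *Th*, *Pvalb* and *Nppb* lie below.

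The rule genes are given as a description, since they chose the cells. *Comp* was at 74.5, 85.2, 88.6 and 84.6 CPM in members and 6.67, 6.97, 11.3 and 9.96 CPM in other neurons, with a median of 3, 2, 4 and 2 UMIs per member cell and a highest count of 70. The lowest inclusion level was common: 386 members had exactly 1 *Comp* UMI. Of the 6 genes, 253 members had 3, 301 had 4, 361 had 5 and 253 had all 6. Just outside the rule were 282 cells with *Comp* and without *Oprk1* that had only 2 of the 6 genes. The *Sprr1a* limit fell in a gap, with the highest member at 1.24 UMIs per 10000 and the lowest *Comp* cell above the limit at 4.41. *Kcnv1*, a modulatory potassium channel subunit, was at 73.8, 76.2, 84.7 and 86.1 CPM, *Pcp4l1* at 299, 327, 269.6 and 294 CPM, *Cdhr1*, a cadherin-related protein, at 91.6, 106, 73.1 and 86.2 CPM, *Traf3ip3* at 29.3, 30.5, 47.5 and 57.5 CPM and the calpain *Capn9* at 22.6, 21.8, 24.8 and 25.5 CPM.

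Of the 4 genes taken as markers of these cells, *Asic3* and *Gng8* were not used by the rule. *Asic3* encodes a proton-gated sodium channel that opens in acidic tissue, and *Gng8* encodes a gamma subunit of heterotrimeric G proteins. *Asic3* was at 53.7, 65.0, 62.0 and 54.6 CPM in *Comp* neurons against 10.8, 11.5, 11.1 and 8.49 CPM in other neurons, and *Gng8* at 86.7, 101, 86.8 and 55.9 CPM against 10.5, 12.8, 10.7 and 8.08 CPM. The level of *Asic3* differed by 5.61-fold and that of *Gng8* by 7.84-fold between the means of the 4 libraries. *Cldn9*, a tight-junction claudin that is also a rule gene, was at 31.4, 39.2, 29.8 and 21.6 CPM against 0.883, 0.743, 0.647 and 0.557 CPM. *Asic3* lies at chr5:24413392-24417835 on the plus strand of GRCm38, *Gng8* at chr7:16891786-16895436 on the plus strand, *Cldn9* at chr17:23682584-23684026 on the minus strand and *Comp* at chr8:70373558-70382066 on the plus strand.

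The RefSeq sequences (GRCm38.p6, plus strand) just upstream of *Asic3* and *Gng8* are shown because they are the 2 marker genes whose expression the rule did not use. *Asic3* is printed for chr5:24413201-24413391, 191 bases that end before the annotated gene, and *Gng8* for chr7:16891536-16891785, 250 bases. Capitals mark a match to a searched motif.
Asic3: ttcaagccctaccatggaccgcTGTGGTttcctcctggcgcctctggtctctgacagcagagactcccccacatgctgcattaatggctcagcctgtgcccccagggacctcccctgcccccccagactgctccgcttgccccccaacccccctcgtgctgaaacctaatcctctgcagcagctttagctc
Gng8: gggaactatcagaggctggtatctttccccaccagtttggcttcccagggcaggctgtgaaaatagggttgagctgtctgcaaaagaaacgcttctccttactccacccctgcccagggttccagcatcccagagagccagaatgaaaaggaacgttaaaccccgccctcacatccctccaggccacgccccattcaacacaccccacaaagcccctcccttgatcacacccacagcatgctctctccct
Both strands of the 250 bases before the RefSeq start were searched for ACCACA (Runx factors), CTAATG (*Isl1*), CCGGAAGT (*Etv1*), CAGCTG (E-box) and TGACTCA (AP-1). The *Asic3* window held 1 match, to ACCACA on the minus strand, starting at base -228, and the *Gng8* window held 0. Of 27025 promoters of the same length, 14.2% held ACCACA, 6.48% CTAATG, 2.93% CCGGAAGT, 12.8% CAGCTG and 4.43% TGACTCA. The transcription factors themselves were detected in the members, with *Runx1* at 65.1, 65.9, 69.5 and 72.8 CPM, *Isl1* at 131, 124, 129 and 142 CPM and *Etv1* at 139.6, 117, 105 and 76.3 CPM.

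Beyond the markers, 15 genes stood highest over other neurons when ranked by the lowest ratio among the 4 libraries, given as a description. *Chp2*, a calcium-binding partner of sodium-proton exchangers, led at 38.7, 33.6, 70.8 and 62.8 CPM against 3.36, 3.23, 5.32 and 5.62 CPM. *Htr3a*, the ion channel receptor for serotonin, was at 101, 83.0, 70.0 and 54.8 CPM against 11.2, 9.67, 8.93 and 5.40, and *Cgnl1*, a junctional protein, at 35.7, 34.4, 37.2 and 33.2 CPM against 4.41, 3.82, 4.17 and 3.62. Both lists of values were without overlap between *Comp* and other neurons. The 15 also included *Gng8*, *Crip1*, *Epha5*, *Ptk2b*, *Asic3*, *Disp3*, *Trappc3l*, *Vat1l*, *Capn5*, *Calml4* and *Sema5a*. Their mean levels were 3.68 to 6.32 times those of other neurons, apart from *Gng8*. *Sema5a* stood out through 1 group of 84 members, cluster 7 below, where it was at 221 CPM. In all other members it was at 5.00 CPM, against a mean of 5.46 CPM in other neurons. *Epha5*, an ephrin receptor, was at 102, 103, 146 and 151 CPM against 17.5, 18.8, 24.4 and 24.9 CPM, and *Capn5*, a calpain like the rule gene *Capn9*, at 253, 257, 251 and 274 CPM against 66.3, 70.0, 69.8 and 75.6 CPM.

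Among the lowest relative to other neurons were *Pvalb*, *Pcp4*, *Fam19a4*, *Ceacam10*, *C1ql4*, *Cbln2*, *Ppp1r1a*, *Gfra2* and *Ccdc68*. *Gfra2*, the co-receptor for neurturin in nonpeptidergic neurons, was at 10.3, 14.9, 9.20 and 5.88 CPM against 175, 167, 125 and 136 CPM. *Ppp1r1a*, an inhibitor of protein phosphatase, was at 15.5, 16.0, 9.65 and 10.3 CPM against 195, 185, 147 and 142 CPM. The other thrombospondins did not share the level of *Comp*: *Thbs4*, its close relative, had 0 UMIs in *Comp* neurons of all 4 libraries, and *Thbs1*, *Thbs2* and *Thbs3* were between 0.151 and 3.24 CPM. Among thrombospondin receptors, *Cd47* was at 323, 297, 328 and 299 CPM against 394, 348, 380.5 and 371 CPM in other neurons.

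The members were not uniform. Clustering of the 1168 cells on 1500 variable genes gave 9 clusters of 27 to 235 cells, described here by their leading genes and without a test, since the same genes made them. Cluster 1 (235 cells) was led by *Tac1*, *Gfra3* and *Crip1*, with *Tac1* at 7439 CPM. Cluster 5 (154 cells) was led by *Asic1*, *Gng8* and *Calml4*, with *Gng8* at 250.6 CPM, *Asic3* at 137 CPM and *Nefh*, the heavy neurofilament of large axons, at 781 CPM. Cluster 7 (84 cells) had *Nefh* at 1202 CPM and the axonal surface protein *Thy1* at 1727 CPM, while *Tac1* was at 99.0 CPM and *Trpv1* at 19.9 CPM. Its *Tac1* and *Trpv1* were below every library of other neurons and go against the peptidergic label. Its *Calca* was at 8097 CPM, *Asic3* at 69.6 CPM and *Gng8* at 129 CPM. No comparison left cluster 7 out as a group. Clusters 1, 5 and 7 thus ranged from substance P-rich neurons with little neurofilament to neurofilament-rich neurons with little substance P.

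Clusters 4, 8 and 9 held genes of nonpeptidergic classes. Cluster 4 (167 cells) was led by *Mrgpra3*, *Rgs5*, *Ctxn3*, *Tmem45b* and Lxn, with *Mrgpra3* at 125 CPM, and its *Asic3* was at 1.34 CPM and its *Gng8* at 8.81 CPM. Cluster 9 (27 cells) had *Mrgpra3* at 160.1 CPM together with *Fabp7* at 1138 CPM and *Apoe* at 3175 CPM. Cluster 8 (35 cells) was led by *Gfra2* and *Ppp1r1a* and had *Mrgprd*, the receptor of another nonpeptidergic class, at 98.3 CPM. *Calca* was still at 12147 CPM in cluster 4, 5886 CPM in cluster 8 and 12442 CPM in cluster 9. Together these clusters held 229 members, 19.6%, and in cells of clusters 4 and 9 the label markers *Asic3* and *Gng8* go against a PEP1-like name, so the shares and the number of calls of the 4 main comparisons are also given without clusters 4, 8 and 9.

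Of the remaining clusters, cluster 2 (201 cells) was led by the SGC genes *Apoe* and *Fabp7*, with *Apoe* at 3957 CPM and *Calca* at 15049 CPM in the same cells. Cluster 3 (178 cells) was led by *Ifit1*, *Atf3*, Frat2 and *Klf4*, interferon-response and stress genes, with the neuropeptide *Adcyap1* at 345 CPM. Cluster 6 (87 cells) was led by *Kcnk3*, *Gal* and *Npy1r*, with the neuropeptide *Gal* at 757 CPM and the receptor *Npy1r* at 360.2 CPM. Each of the 9 clusters had cells from all 4 libraries, but in different proportions. Cluster 1 held 24.0% and 22.9% of members in sham and 16.3% and 12.2% in CCI, cluster 3 held 11% and 11.8% and then 16.3% and 27.1%, and cluster 6 held 3.42% and 6.53% and then 9.30% and 13.1%. Genes that lead these clusters also differed between the surgeries, so the proportions are not read as numbers of a cell type. At least 0.1% of UMIs came from *Apoe* and *Fabp7* in 21.2% and 25.7% of members of the male and female sham libraries, and in 15.7% and 16.6% of the male and female CCI libraries.

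**Figure D2:**
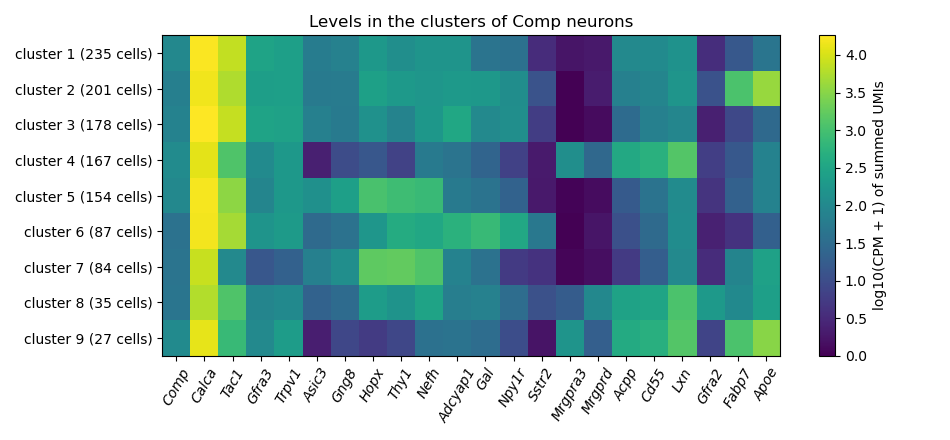
Level of 22 genes as log10 of CPM plus 1 (color) in the 9 clusters of *Comp* neurons (rows, with cell numbers), from UMIs summed over the cells of a cluster in all libraries. *Calca* is high in every row, *Asic3* and *Gng8* are low in clusters 4 and 9, where *Mrgpra3* and Lxn are high, and *Nefh*, *Thy1* and Hopx are highest in cluster 7.

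Within a library single cells varied widely in the neuropeptides. In Female-Sham the 10th and 90th percentiles of *Calca* were 73.7 and 224 UMIs per 10000, and those of *Tac1* were 5.19 and 104. In Male-CCI the percentiles were 70.3 and 198 for *Calca* and 0.215 and 82.2 for *Tac1*. The median cell had 0.380 *Gng8* UMIs per 10000 in Female-Sham and 0.224 in Female-CCI.

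The share of *Comp* neurons answers how many of the sorted cells could be seen in this state after each surgery. They were 7.47% of cells in Male-Sham (95% Clopper-Pearson interval 6.67% to 8.34%) and 7.38% in Female-Sham (6.75% to 8.04%). After CCI they were 5.15% in the male library (4.42% to 5.95%) and 5.52% in the female one (4.85% to 6.26%). The ratio of the mean CCI share to the mean sham share was 0.718. Among cells at or below the *Sprr1a* limit the order turned, with 7.61%, 7.65%, 10.9% and 11.3% and a ratio of 1.45. In both readings the CCI libraries lay wholly on one side of the sham libraries, and the exact two-sided permutation test of 2 against 2 libraries gave p = 0.333, the smallest p this design allows. Without clusters 4, 8 and 9 the shares were 5.53%, 6.02%, 4.01% and 4.85% of all cells and 5.63%, 6.25%, 8.46% and 9.92% of cells at or below the limit, with ratios of 0.767 and 1.55. Intervals cover counting error only.

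The 2 shares have different denominators: cells above the *Sprr1a* limit were 1.84% and 3.60% of cells in sham and 52.6% and 51.1% in CCI. The share among low-Sprr1a cells depended on the limit, since with 0 *Sprr1a* UMIs required the ratio was 0.902, below 1. Among members, at least 1 *Sprr1a* UMI was found in 5.48% and 6.11% of cells in sham and 79.7% and 76.0% in CCI. The summed level of *Sprr1a* was 23.8 and 25.5 CPM in *Comp* neurons, 27.7 and 22.4 CPM in *Oprk1* neurons and 24.3 and 28.2 CPM in other neurons of Male-CCI and Female-CCI, all groups under the same limit, against 3450 and 2701 CPM in all cells above it.

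**Figure D3:**
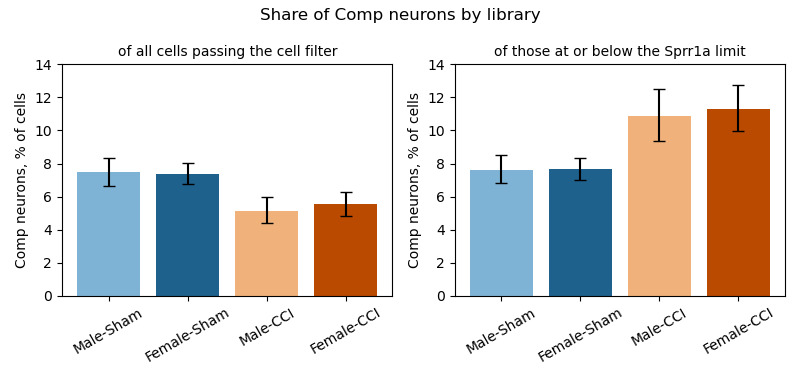
*Comp* neurons as a percentage of all cells passing the cell filter (left) and of those at or below the *Sprr1a* limit (right) in each library, with bars from 0 and 95% Clopper-Pearson intervals. The CCI bars, 5.15% and 5.52%, are below the sham bars on the left, and the CCI bars, 10.9% and 11.3%, are above them on the right.

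Few cells that met the *Comp* condition lay above the *Sprr1a* limit. Without the limit 7.03% of *Comp* cells in Male-CCI and 6.15% in Female-CCI were above it, 13 and 15 cells, against 25% and 20.3% of all cells with at least 3 of the 6 genes. In sham these were 2 and 1 cells. Conversely, *Comp* neurons made up 31.5% and 30.8% of the low-Sprr1a cells with at least 3 of the 6 genes in sham and 41.3% and 41.0% in CCI. A cell is counted only with at least 1 *Comp* UMI, and *Comp* itself was lower above the limit, as given further on. These shares depend on the rule and are not read as the part of *Comp* neurons that was injured or spared.

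The closest neurons by the rule were *Oprk1* neurons, 532 cells that met the same 6-gene and *Sprr1a* conditions with at least 1 *Oprk1* UMI and 0 *Comp* UMIs. Compared within the 4 libraries on summed cells, *Comp* neurons had more of the axon genes *Thy1*, *Nefh*, *Nefm* and *Nefl*. They also had more of the sodium channel genes *Scn8a* and *Scn4b* and of the acid-sensing channel genes *Asic1* and *Asic2*. Less was found of the neuropeptides *Tac1* and *Adcyap1* and of the receptors *Galr1*, *Cnr1* and *Npy2r*. The sums do not describe every member, since *Thy1*, *Nefh*, *Scn4b*, *Kcna1* and *Asic1* differed widely between the clusters of members. At an adjusted p below 0.05 and a log2 difference above 0.5 or below -0.5, the edgeR quasi-likelihood test with Benjamini-Hochberg adjustment called 1582 of 13139 genes (12%), 804 higher (6.12%) and 778 lower (5.92%) in *Comp* neurons. Genes of the rule were left out of all counts. The median log2 difference over all genes was -0.00.

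Of 13 axon calibre and myelinated fibre genes, 8 were higher and 0 lower in *Comp* neurons, with a median log2 difference of 0.68. *Thy1* was at 387, 357, 434 and 426 CPM in *Comp* neurons and at 61.3, 55.0, 172 and 166 CPM in *Oprk1* neurons, a log2 difference of 2.06 ± 0.37 (SE; adjusted p = 0.0339). *Nefh* was at 315, 313, 434 and 417 CPM against 119, 97.3, 203 and 178 CPM, a log2 difference of 1.40 ± 0.11 (adjusted p = 0.00130). For both genes the libraries of the 2 cell groups did not overlap, and both were higher after CCI than after sham in each group. *Nefm*, *Nefl*, *Cntn1*, *Cntnap1* and *Kcna1* were also called, and 5 of the 13 were called without Male-Sham or without Female-Sham. Among members, *Thy1* was at 853 CPM in cluster 5 and 1727 CPM in cluster 7, and at 5.88 to 424 CPM in the other clusters. *Nefh* was at 781 and 1202 CPM in clusters 5 and 7 and at 38.4 to 358 CPM in the others. *Kcna1* was at 79.1 CPM in cluster 5 and at 16.7 CPM in all other members. The comparison without clusters 5 and 7 was not tested.

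Of 13 voltage-gated sodium channel genes 6 were called higher and 0 lower, with a median of 0.43. *Scn8a*, the channel of nodes of Ranvier, was at 41.8, 39.2, 46.7 and 49.6 CPM against 13.4, 9.86, 21.4 and 23 CPM (1.56 ± 0.14 on the log2 scale, adjusted p = 6.19e-05). *Scn4b*, an auxiliary beta subunit, was at 15.9, 15.9, 10.5 and 11.4 CPM against 6.03, 2.64, 1.76 and 2.03 CPM. Among members, *Scn4b* was at 44.8, 52.3, 27.8 and 29.9 CPM in cluster 5 and at 0 to 6.14 CPM in clusters 1 to 4. *Scn4a*, *Scn3a* and *Scn2b* were also among the 6. *Scn10a*, the nociceptor channel resistant to tetrodotoxin, was at 285, 298, 262 and 281 CPM against 322, 332, 329.8 and 354 CPM, and its log2 difference of -0.21 ± 0.04 was under the threshold on size.

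Of 29 transduction genes for acid, ATP, heat and touch, 10 were higher and 2 lower, with a median of -0.07. *Asic1* was at 16.5, 19.5, 20.6 and 16.4 CPM against 4.36, 3.05, 4.92 and 4.36 CPM, a log2 difference of 2.23 ± 0.14 (adjusted p = 5.67e-11), and *Asic2* at 66.7, 63.7, 62.3 and 61.8 CPM against 29.9, 26.3, 16.5 and 22.4 CPM (1.38 ± 0.09, adjusted p = 9.79e-09). The marker *Asic3*, at 53.7, 65.0, 62.0 and 54.6 CPM against 46.8, 38.5, 30.6 and 21.2 CPM, had a log2 difference of 0.74 ± 0.21 and an adjusted p of 0.0859, so it was not called although its libraries did not overlap. Among members, *Asic1* was at 75.6 CPM in cluster 5, which it leads, and at 7.96 CPM in all other members. *Piezo2*, the main touch channel, was among the higher genes, at 0.52 ± 0.06. The cold receptor *Trpm8* was lower, at 0.680 to 0.972 CPM against 1.40 to 3.02 CPM.

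Of 24 G protein subunit genes, *Gng8* and *Gng5* were higher and *Gng11* was lower, a share of 12.5% beside the 12% called over all genes. *Gng8* was at 86.7, 101, 86.8 and 55.9 CPM against 35.2, 31.6, 27.4 and 24.4 CPM, a log2 difference of 1.51 ± 0.07 (adjusted p = 5.82e-11), with every *Comp* library above every *Oprk1* library.

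Of 11 neuropeptide, opioid and cannabinoid receptors, 1 was higher and 6 were lower, with a median of -0.89. The galanin receptor *Galr1* was at 7.14, 9.72, 6.73 and 6.56 CPM in *Comp* neurons and 54.6, 50.2, 50.2 and 59.6 CPM in *Oprk1* neurons, a log2 difference of -2.75 ± 0.11 (adjusted p = 8.46e-10). The cannabinoid receptor *Cnr1* was at 10.4, 13.9, 12.2 and 16.4 CPM against 35.9, 36.7, 42.5 and 50.6 CPM (-1.60 ± 0.08), and the neuropeptide Y receptor *Npy2r* at 11, 11.7, 16.5 and 16.1 CPM against 32.6, 32.4, 47.8 and 53.8 CPM (-1.54 ± 0.08). *Oprm1*, the mu opioid receptor, was at 9.38, 9.45, 12.2 and 14.3 CPM against 15.3, 13.4, 19.3 and 20.1 CPM (-0.56 ± 0.10, adjusted p = 0.000143). *Ntsr2* and *Sstr2* were also lower, and *Sstr1* was higher.

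Of 15 neuropeptide genes 0 were called higher and 3 lower (median -0.19), with 7 at an unadjusted p under 0.05. That no gene was higher did not hold throughout: in 7 of 13 alternatives 1 to 3 of *Cartpt*, *Nppb* and *Sst* were called higher, among them DESeq2 with 2 higher and 4 lower and a median of 0.20. *Tac1* was at 4142, 4656, 3768 and 4677 CPM against 7856, 8113, 7007 and 8520.0 CPM (-0.84 ± 0.03, adjusted p = 4.95e-16), and *Adcyap1* at 117, 159, 174 and 230.0 CPM against 391, 396, 412 and 415 CPM (-1.26 ± 0.17, adjusted p = 0.0173). *Calcb* was the third. *Calca*, at 14059, 14891, 14213 and 14562 against 21421, 21521, 19278 and 20119 CPM, missed the threshold on size with a log2 difference of -0.48 ± 0.03.

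Receptors for inflammatory mediators and growth factors differed in both directions. Of 26 inflammatory mediator receptors, 7 were higher and 5 lower (median -0.03): *Htr3a* was at 101, 83.0, 70.0 and 54.8 CPM against 27.9, 26.5, 25.6 and 19.2 CPM (1.70 ± 0.07), and the lysophosphatidic acid receptor *Lpar1* was lower at 38.4, 44.1, 44.7 and 49.6 CPM against 83.0, 82.4, 89.2 and 92.7 CPM (-0.95 ± 0.05). Of 20 trophic factor and cytokine receptors, 4 were higher and 4 lower (median -0.09). *Osmr*, the oncostatin M receptor, was at 121, 85.2, 101 and 82.2 CPM against 41.7, 39.8, 39.3 and 32.6 CPM, and *Ret*, the receptor of GDNF-family ligands, at 107, 105, 112 and 119 CPM against 210.4, 226, 208 and 242 CPM.

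Potassium channels were split, with 13 of 47 higher and 11 lower (median 0.09). *Kcnk18*, a two-pore channel, was at 22.7, 17.1, 18.8 and 14.4 CPM against 2.12, 3.05, 0.702 and 0.291 CPM (3.24 ± 0.24), and *Kcnc4* at 7.43, 8.28, 4.71 and 7.91 CPM against 34.1, 37.6, 35.5 and 59.6 CPM (-2.43 ± 0.13). Of 13 calcium channel genes 4 were higher and 1 lower (median -0.14), the lower being *Cacna1e*. Of 26 sensory neuron transcription factors, *Casz1*, *Nfia*, *Hmx1* and *Nfix* were higher and *Zeb2* was lower (median -0.02). Of 16 genes of glutamate signaling 2 were higher and 3 lower (median -0.21), and of 76 ribosomal protein genes edgeR and DESeq2 called 0, with 28 at an unadjusted p under 0.05 (median -0.01).

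Among all called genes at or above 10 CPM and with the same direction in 4 libraries, the largest increases in *Comp* neurons were in *Cav1*, *Nog*, *Mrgpra3*, *Ctxn3*, *Kcnk18*, *Cfap61*, *Trappc3l*, *Cited1*, *Tmem45b*, *Chp2*, *Ly6h* and *Actn1*, with log2 differences of 2.54 to 3.54. *Cav1*, the coat protein of caveolae, was at 33.3, 23.3, 31.6 and 15.3 CPM against 2.23, 3.25, 1.40 and 0.872 CPM, and *Nog*, a secreted inhibitor of bone morphogenetic proteins, at 19.0, 14.1, 21.5 and 21.1 CPM against 1.90, 1.12, 3.51 and 1.45 CPM. The 12 largest decreases, at -3.75 to -2.30, included *Fgg*, *Cdk18*, *Igfbp5*, *Marcksl1*, *Galr1*, *Chst15*, *Kcnc4*, *Chrnb3*, *Shisa6*, *Ptpro* and *Bex1*. *Fgg*, the gamma chain of fibrinogen, was at 7.05, 8.46, 8.90 and 16.6 CPM against 108, 119.9, 111 and 215 CPM, a log2 difference of -3.75 ± 0.06 (adjusted p = 1.38e-20), and the cyclin-dependent kinase *Cdk18* was at 1.80, 2.20, 1.35 and 1.96 CPM against 20.4, 19.9, 21.4 and 21.8 CPM.

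**Figure D4:**
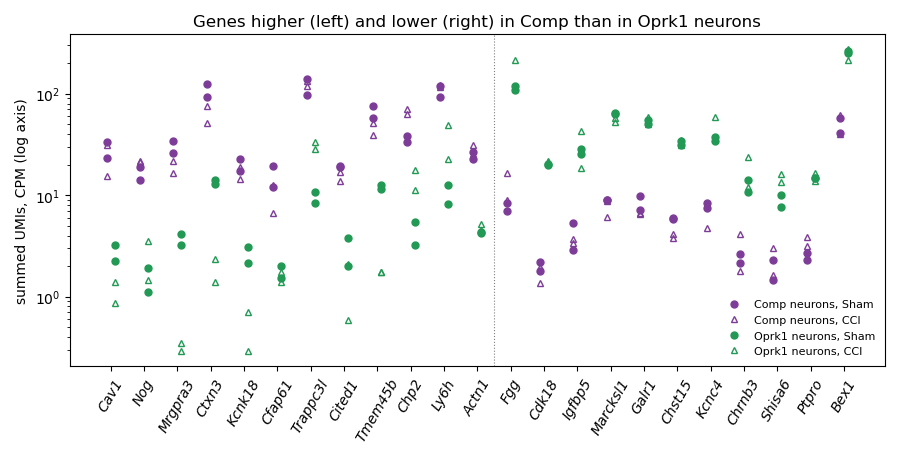
Summed UMIs in CPM (log axis) of the 12 most increased (left) and 11 of the 12 most decreased (right) named genes in *Comp* neurons (purple) against *Oprk1* neurons (green), 1 point per library, filled for sham and open triangles for CCI. The points of the 2 cell groups are apart for each gene, for example *Fgg* at 7.05 to 16.6 CPM against 108 to 215 CPM.

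Without the members of clusters 4, 8 and 9, 1473 genes were called, of which 1186 were shared with the full set, and 21 of the 24 named genes kept their call. The 3 that did not, *Mrgpra3*, *Ctxn3* and *Tmem45b*, are leading genes of cluster 4, so that leaving out its cells fixes their loss, and the *Oprk1* neurons were not cleaned in the same way.

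CCI against sham asks what changed in those *Comp* neurons that stayed at or below the *Sprr1a* limit. *Calca*, *Tac1* and *Asic3* were not called, while the neurotrophin *Bdnf*, the secreted peptide precursor *Vgf*, the irritant receptor *Trpa1* and the regeneration-associated factors *Sox11* and *Jun* rose, and the sterol synthesis genes *Mvd* and *Erg28* fell. The edgeR quasi-likelihood test with Benjamini-Hochberg adjustment called 444 of 13211 genes (3.36%), 279 higher (2.11%) and 165 lower (1.25%) after CCI, with a median log2 change of 0.00 over all genes. All 444 changed in the same direction in both sexes. The male and female libraries are the replicates of this test, so that agreement follows from the calls and is no separate evidence. The number of calls rested most on Female-CCI, since 175 genes were called without it, against 525 to 615 without 1 of the other libraries. Without clusters 4, 8 and 9, 440 genes were called, 328 of them among the 444, and 23 of the 24 named genes kept their call.

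The cell markers and peptides first. *Calca* was at 14059 and 14891 CPM in sham and 14213 and 14562 CPM in CCI, a log2 change of -0.00 ± 0.05, and *Tac1* at 4142 and 4656 CPM and 3768 and 4677 CPM, a change of -0.06 ± 0.11. *Trpv1* had a log2 difference of -0.01 ± 0.07. *Asic3* was at 53.7 and 65.0 and 62.0 and 54.6 CPM (-0.02 ± 0.10), and *Gng8* at 86.7 and 101 and 86.8 and 55.9 CPM (-0.39 ± 0.26, adjusted p = 0.442), where Female-CCI was the low library. Of 46 markers that the study named for PEP1 neurons, a list drawn from these same samples and so no independent evidence, *Epha5* and *Pcdh17* rose and *Resp18* fell, with a median of -0.04.

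Among genes above 10 CPM the largest increases were in *Pappa*, *Trpa1*, *Ccl21a*, *Ecel1*, *Olfr920*, *Irf7*, *Serpinb1a*, *Fgf11*, *Vgf*, *Prr15*, *Eif2ak2* and *Fam210b*. *Pappa*, a secreted protease that frees insulin-like growth factors, was at 4.08 and 2.65 CPM in sham and 22.2 and 40.7 CPM in CCI, a log2 change of 3.23 ± 0.44 (adjusted p = 0.0355). *Trpa1*, the channel for reactive irritants, was at 13.3 and 12.1 CPM and 36.3 and 51.9 CPM (1.80 ± 0.18, adjusted p = 0.00585). Both genes were highest in Female-CCI, and the CCI and sham libraries did not overlap. *Pappa* lost its call in 7 of 17 alternatives and *Trpa1* in 3 of 17, and both lost it with 0 *Sprr1a* UMIs required.

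*Eif2ak2*, the antiviral kinase PKR, was at 17.2 and 19.8 CPM in sham and 40.1 and 48.0 CPM in CCI, a log2 change of 1.25 ± 0.10 (adjusted p = 0.000471), and it was the 1 gene of the 24 named here that kept its call under every alternative tried. *Irf7*, an interferon-response factor, was at 3.35 and 4.36 CPM and 7.78 and 14.5 CPM (1.53 ± 0.32, adjusted p = 0.0435). It was the only called gene of 21 interferon and MHC class I genes, which had a median of 0.31. *Ifit1* was at 23.2 and 36.6 CPM and 86.8 and 176 CPM and did not pass, with an adjusted p of 0.200. The endopeptidase *Ecel1* was at 4.57 and 3.37 and 10.9 and 14.7 CPM, the chemokine *Ccl21a* at 4.81 and 5.89 and 13.6 and 22.7 CPM, and the serpin *Serpinb1a* at 54.4 and 43.2 and 104 and 149 CPM.

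Of 33 injury-induced genes measured, 20 rose and 0 fell, with a median log2 change of 0.72. Several listed genes, such as *Sox11*, *Sema6a*, *Ecel1* and *Tnfrsf12a*, are named by the study as markers of neuron clusters that appeared after CCI. Those clusters came from these same samples, so counts over this list, here and further on, are not independent evidence. *Bdnf* was at 131 and 144 CPM in sham and 273 and 354 CPM in CCI, a change of 1.19 ± 0.13 (adjusted p = 0.00712). *Sox11* was at 31.7 and 35.6 CPM and 68.3 and 79.1 CPM (1.13 ± 0.09, adjusted p = 0.000277), *Jun* at 188 and 209.5 CPM and 289.7 and 309 CPM (0.59 ± 0.07), and *Vgf* at 69.1 and 72.0 CPM and 143 and 197 CPM (1.27 ± 0.15). *Atf3*, a stress factor typical of damaged neurons, was at 98.2 and 119 CPM and 104 and 152 CPM and did not pass, with an adjusted p of 0.595, and *Gadd45a* was at 35.9 and 38.6 CPM and 34.6 and 33.3 CPM. The growth cone protein *Gap43* passed the adjusted p with a log2 change of 0.49 ± 0.06, under the threshold on size.

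*Sprr1a* moved with this list, from 0.777 and 1.39 CPM in sham to 23.8 and 25.5 CPM in CCI members, a rise of 0.766% of its level in all CCI cells above the limit. For 5 of the 20 genes (*Crh*, *Cryba2*, *Inhbb*, *Npy* and *Sema6a*) the rise in members was at most 2 times this percentage of their own level in those cells, and 15 genes were above it. The rule caps *Sprr1a* in members, so the 0.766% is held down by the selection. The 5 and 15 genes are a description, and where their RNA came from was not tested. The percentage was 4.54% for *Sox11*, 17.2% for *Jun* and 33.1% for *Vgf*. *Bdnf*, *Trpa1* and *Pappa* rose in members by more than their whole level in the cells above the limit, at 284%, 1404% and 396%. Those cells are of all classes. *Bdnf* was at a mean of 62.0 CPM in them, below its level in the *Comp* cells above the limit, given further on. With 0 *Sprr1a* UMIs required of every member, 35 and 55 members remained in the CCI libraries, the median of the list was 0.52, and 5 of 29 genes were called (*Jun*, *Sdc1*, *Sox11*, *Stmn4* and *Vgf*). Without Female-CCI 10 of 31 were called, with a median of 0.55.

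Among other signaling genes, the called share was 26.7% for neuropeptides and 27.3% for neuropeptide, opioid and cannabinoid receptors. It was 3.85% for inflammatory mediator receptors and 5% for trophic factor receptors, beside 3.36% over all genes. Of 15 neuropeptides, *Bdnf*, *Npy*, *Crh* and *Ucn* rose and 0 fell (median 0.55), and *Npy*, which had 0 UMIs in sham, was at 1.87 and 1.73 CPM. *Gal* was at 66.0 and 99.5 CPM and 130.0 and 169 CPM and *Adcyap1* at 117 and 159 CPM and 174 and 230.0 CPM, and neither passed, with adjusted p of 0.197 and 0.249. Of 11 neuropeptide, opioid and cannabinoid receptors the vasopressin receptor *Avpr1a* (1.12 and 0.945 to 3.44 and 8.14 CPM) and *Npy2r* (11 and 11.7 to 16.5 and 16.1 CPM) rose and *Ntsr2* (7.43 and 10.2 to 4.34 and 3.84 CPM) fell, with a median of 0.50. Of 26 inflammatory mediator receptors *Lpar3* was the only one called, lower, at 1.60 and 1.30 CPM in sham and 0.449 and 0.226 CPM in CCI (median -0.13), and of 20 trophic factor receptors *Epha5* alone was called, at 0.54 ± 0.06 (median -0.01).

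For ion channels, the called share was 7.69% of sodium, 6.38% of potassium and 7.69% of calcium channel genes and 3.45% of transduction genes. The share over all genes was 3.36%. Of 13 sodium channel genes *Scn4b* fell (-0.54 ± 0.11), and *Scn10a* was at 285 and 298 CPM and 262 and 281 CPM, with a list median of -0.10. Of 47 potassium channel genes *Kcna1* rose, while *Kcnj3* and *Kcnip2* fell (median 0.00). *Kcnj3*, a G protein-gated inward rectifier, was at 12.8 and 18.1 CPM and 7.11 and 8.07 CPM (-1.03 ± 0.18, adjusted p = 0.0117). Of 13 calcium channel genes the T-type channel *Cacna1h* rose (9.09 and 7.87 to 11.7 and 14.3 CPM, median 0.15), and of 29 transduction genes *Trpa1* was the only one called (median -0.01). Of 25 G protein subunit genes edgeR and DESeq2 called 0, with 11 at an unadjusted p under 0.05 (median -0.07).

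Transcription factor and glutamate genes gave 1 call each, 3.85% and 5.88% of the lists, beside 3.36% over all genes. *Isl2* was at 272 and 233 CPM and 184 and 161 CPM (-0.54 ± 0.09) among 26 factors (median 0.14), and the kainate receptor *Grik1* at 20.5 and 20.8 CPM and 13.0 and 15.5 CPM (-0.53 ± 0.11) among 17 glutamate genes (median -0.01). Of 12 axon calibre genes *Kcna1* rose (median 0.17), and *Nefh*, at 315 and 313 CPM and 434 and 417 CPM, passed the adjusted p with a log2 change of 0.44 ± 0.05, under the threshold on size. Of 24 immediate early and dissociation genes edgeR and DESeq2 called 0, with 8 at an unadjusted p under 0.05 (median -0.14). Of 13 respiratory chain genes of the mitochondrial genome 5 rose and 2 fell (median 0.40), while the median mitochondrial share of members was 3.77% and 4.07% in sham and 4.75% and 4.87% in CCI.

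The largest decreases above 10 CPM were in *Selenop*, *Kcnj3*, *Mvd*, *Erg28*, *Apoe*, *Hpca*, *Dll3*, *Amd2*, *Chrm2*, *Atg4c*, *Lpcat4* and *Insig1*. *Mvd* and *Erg28* take part in sterol synthesis and *Insig1* is a sterol-responsive regulator of it. *Erg28* was at 69.2 and 79.2 CPM in sham and 38.4 and 37.2 CPM in CCI, a log2 change of -0.97 ± 0.08 (adjusted p = 0.000277). *Mvd* was at 44.9 and 60.6 CPM and 28.4 and 25.2 CPM (-0.97 ± 0.17), and *Insig1* at 34.1 and 36.5 CPM and 20.9 and 19.1 CPM (-0.82 ± 0.09). *Mvd* is also a leading gene of cluster 1, which held a lower share of members in both CCI libraries. The sterol genes were grouped after their values were seen, and no list of them was tested.

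*Apoe* and *Selenop* moved with SGC RNA. *Apoe* was at 724 and 866 CPM and 465 and 399.9 CPM (-0.87 ± 0.11), and *Selenop* at 18.2 and 24.5 CPM and 9.72 and 9.87 CPM (-1.12 ± 0.15). Of 15 SGC markers 0 rose and 4 fell (*Apoe*, *Sparc*, *Fabp7* and *Ednrb*; median -0.57), and their summed level in members was 2280 and 2524 CPM in sham and 1891 and 1700 CPM in CCI. Without the members that had at least 0.1% of UMIs from *Apoe* and *Fabp7*, the median of the SGC list was -0.06 and *Apoe* was at -0.28 (adjusted p = 0.148), and 18 of 32 injury-induced genes rose. Of the 24 named genes 21 kept their call there, and *Apoe*, *Selenop* and *Mvd* lost it.

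**Figure D5:**
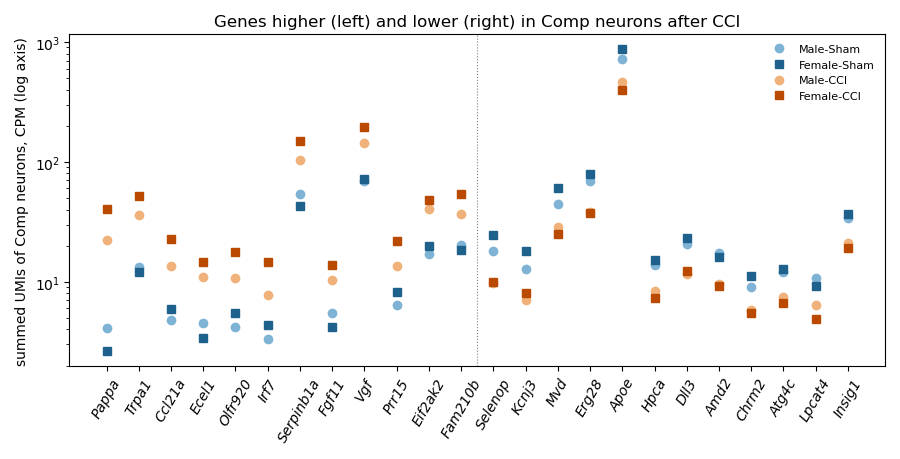
Summed UMIs of *Comp* neurons in CPM (log axis) for the 12 genes most increased (left) and 12 most decreased (right) after CCI, 1 point per library, with circles for male and squares for female libraries. Blue sham points and orange CCI points are apart for all 24 genes, for example *Eif2ak2* at 17.2 and 19.8 CPM in sham and 40.1 and 48.0 CPM in CCI.

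The changes were also read inside the 5 clusters that had at least 20 cells in every library, as levels without a test. The genes were chosen by their change in these same cells, so agreement inside the clusters is not independent support. No share over all tested genes was counted. Of the 12 most increased genes, both CCI libraries were above both sham libraries in 5 of 5 clusters for 8 and in 4 of 5 for *Trpa1*, *Ccl21a*, *Irf7* and *Fgf11*. Of the 12 most decreased, they were below in 5 of 5 for *Erg28*, *Hpca*, *Dll3*, *Amd2* and *Insig1*, in 4 for *Mvd* and *Atg4c*, in 3 for *Kcnj3* and *Chrm2*, in 2 for *Selenop* and *Lpcat4* and in 1 for *Apoe*. Among other called genes, *Bdnf*, *Sox11* and *Epha5* were above and *Isl2* and *Ntsr2* below in 5 of 5, and *Jun* was above in 4. *Kcna1* and *Avpr1a* were above and *Grik1* below in 3 of 5, *Scn4b* was below in 2, *Kcnip2* and *Lpar3* were below in 1, and *Cacna1h* and *Npy2r* were above in 1 and below in 1. When the rule was read on cells thinned to 5000 UMIs, 83 cells remained members and 17 genes were called.

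The CCI change of *Comp* neurons was compared with that of *Oprk1* neurons by an interaction term, and the edgeR quasi-likelihood test with Benjamini-Hochberg adjustment called 55 of 13139 genes (0.419%), 22 with a higher and 33 with a lower change in *Comp* neurons. Only 45 and 72 *Oprk1* neurons came from the CCI libraries. *Bdnf* had the larger change in *Comp* neurons, at 131 and 144 CPM in sham and 273 and 354 CPM in CCI against 131 and 149 CPM and 197 and 208 CPM in *Oprk1* neurons, a difference of 0.66 ± 0.09 on the log2 scale (adjusted p = 0.000410). *Thy1* was at 61.3 and 55.0 CPM in sham and 172 and 166 CPM in CCI *Oprk1* neurons and at 387 and 357 and 434 and 426 CPM in *Comp* neurons (-1.33 ± 0.08, adjusted p = 4.00e-09). Of 34 injury-induced genes *Bdnf*, *Socs3* and *Jun* had a higher change in *Comp* neurons and 0 a lower one (median 0.09).

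The largest interactions above 10 CPM were in *Rgs5*, *Rarres1*, *Paqr5*, *Tmem45b* and *Lypd1*, with the higher change in *Comp* neurons, and in *Nxph4*, *Fam19a1*, *Rasgrf2*, *Adcy1* and *Creg2*, with the lower. *Rgs5*, a regulator of G protein signaling, was at 23.6 and 12 CPM in sham and 34.3 and 38.5 CPM in CCI *Comp* neurons and at 7.60 and 2.64 CPM in sham *Oprk1* neurons, with 0 UMIs in *Oprk1* neurons of both CCI libraries. *Fam19a1*, a secreted protein, was at 20.2, 13.9, 16.5 and 21.9 CPM in *Comp* neurons and at 2.23 and 1.73 CPM in sham and 14.4 and 16.6 CPM in CCI *Oprk1* neurons (-2.78 ± 0.26, adjusted p = 9.01e-06). Of these 10 genes 6 are leading genes of 1 cluster of members: *Rgs5*, *Tmem45b* and *Paqr5* of cluster 4, *Rarres1* of cluster 8, and *Fam19a1* and *Rasgrf2* of cluster 7. Without clusters 4, 8 and 9, 82 genes were called, 50 of them among the 55, and all 10 kept their call. The *Oprk1* neurons were not cleaned in the same way. The kept calls therefore do not show whether such cells among *Oprk1* neurons took part. The number of calls was 29 without Male-Sham and 30 without Female-CCI.

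Against all other neurons below the *Sprr1a* limit, the same test called 62 of 15246 genes (0.407%), 32 with a higher (0.210%) and 30 with a lower change (0.197%) in *Comp* neurons. It was 20 without Male-Sham, 25 without Female-Sham and 203 without Male-CCI, and 76 without clusters 4, 8 and 9, of which 48 were among the 62. *Trpa1* had the larger change in *Comp* neurons, at 13.3 and 12.1 CPM in sham and 36.3 and 51.9 CPM in CCI, against 31.1 and 35.6 CPM and 43.8 and 60.7 CPM in other neurons, a difference of 1.18 ± 0.10 (adjusted p = 0.000264). It started from a lower level, so that the CCI levels of the 2 groups overlapped. *Bdnf* was at 116 and 126 CPM and 148 and 185 CPM in other neurons, with a difference of 0.75 ± 0.05 (adjusted p = 3.02e-05), and *Tmem100*, a regulator of *Trpa1* and *Trpv1*, was at 186 and 221 and 275 and 283 CPM in *Comp* neurons against 64.9 and 84.7 and 70.4 and 76.1 CPM in others (0.51 ± 0.07, adjusted p = 0.00291).

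The injury-induced list was divided. Of 39 injury-induced genes, *Npy* and *Bdnf* had a higher and *Gadd45a*, *Sema6a*, *Tnfrsf12a*, *Sdc1*, *Csf1* and *Itga7* a lower change in *Comp* neurons, with a median of -0.10. *Gadd45a* was at 35.9 and 38.6 CPM and 34.6 and 33.3 CPM in *Comp* neurons, against 37.0 and 38.4 CPM and 83.2 and 88.6 CPM in other neurons, a difference of -1.29 ± 0.08 (adjusted p = 9.47e-06). *Tnfrsf12a*, the TWEAK receptor, was at 7.63 and 8.32 and 15.6 and 14.4 CPM against 3.65 and 4.24 and 18.0 and 18.5 CPM (-1.27 ± 0.14, adjusted p = 0.00103). *Trpa1*, *Gadd45a* and *Tnfrsf12a* kept their calls in each of the 7 alternatives run for this test. The groups are not independent of injury, since members had to keep *Comp* and enough of the rule genes. Other neurons were cells with too few of the rule genes. A CCI cell below the *Sprr1a* limit that lost such genes could thus be counted with other neurons. How far this selection made the changes of the injury-induced genes lower in *Comp* neurons was not tested.

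Between the sexes, with surgery as a covariate, 43 of 13211 genes (0.325%) were called by edgeR, 25 with more and 18 with less RNA in females. *Xist* was at 244 and 237 CPM in female and at 0 UMIs in male libraries, and the Y-linked genes *Ddx3y* and *Eif2s3y* had 0 UMIs in females, with *Ddx3y* at 34.2 and 37.8 CPM in males and *Eif2s3y* at 35.4 and 27.9 CPM, so the sex labels held in these cells. *Nr4a1*, an immediate early gene, was at 5.15, 14, 4.04 and 7.69 CPM (1.25 ± 0.16, adjusted p = 0.00313) and *Ifit1* at 23.2, 36.6, 86.8 and 176 CPM (0.87 ± 0.08, adjusted p = 0.00143), both higher in the female library of each surgery. The cytokine receptor *Il31ra* was lower, at 6.61, 3.01, 15.7 and 7.01 CPM (-1.16 ± 0.15, adjusted p = 0.00313), together with *Sst* and *Nppb*, which are peptides of the same itch-related class. *Nppb* was at 34.1 CPM in cluster 4 and at 0 to 2.33 CPM in the other clusters. Cluster 4 held 20.2% and 18.0% of members in Male-Sham and Male-CCI and 12% and 8.73% in Female-Sham and Female-CCI. The sexes were not compared without this cluster. Each sex has 1 library per surgery, and DESeq2 called 8 genes.

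The CCI libraries held 28 *Comp* cells that only the *Sprr1a* limit kept out of the members. Compared with the 401 members of the same libraries, 1640 of 12072 genes (13.6%) passed in edgeR, 873 higher (7.23%) and 767 lower (6.35%), with a median of -0.04. Of 37 injury-induced genes 31 were higher and 1 was lower (median 2.87): *Sox11* was at 384 and 446 CPM against 68.3 and 79.1 CPM in members (2.62 ± 0.10, adjusted p = 3.15e-12), *Atf3* at 589 and 791 CPM against 104 and 152 CPM (2.57 ± 0.09) and the peptide *Nts* at 865 and 1092 CPM against 18.3 and 29.0 CPM (5.52 ± 0.10). The 1 lower gene was *Bdnf*, at 181 and 214 CPM against 273 and 354 CPM (-0.53 ± 0.10, adjusted p = 0.000694). These cells were divided from the members by *Sprr1a*, so the injury-induced list is not independent of the division, and DESeq2 called 695 genes.

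Called identity genes were mostly lower in these cells, and the PEP1 list was drawn from these same samples. Of 46 PEP1 markers named by the study 3 were higher and 25 lower (median -0.70), and of 23 sensory neuron transcription factors 0 were higher and 11 lower (median -0.70). *Calca* was at 5408 and 6828 CPM against 14213 and 14562 CPM in members (-1.12 ± 0.06, adjusted p = 8.06e-08), and *Trpv1* at 74.9 and 111 CPM against 195 and 208 CPM (-1.02 ± 0.13). *Comp* itself, as a description, was at 21.3 and 20.7 CPM against 88.6 and 84.6 CPM, from 29 and 20 UMIs in the Sprr1a-high cells. At least 1 *Comp* UMI was also found in 14.1% and 12.8% of other neurons of Male-CCI and Female-CCI. Whether the Sprr1a-high cells were of the same class as the members before injury was not tested. *Gal*, at 6005 and 4423 CPM against 130.0 and 169 CPM, did not pass at an adjusted p of 0.130. The largest increases above 10 CPM were in *Cx3cr1*, *Ctla2a*, *Fgf3*, *Gpr151* and *Arg2* and the largest decreases in *Rgs5*, *Nrgn*, *Disp3*, *Mgst1* and *Pnck*, and *Fgf3*, a fibroblast growth factor, was at 42.6 and 64.2 CPM against 0.299 and 0.904 CPM.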

How the data were processed

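UMI counts of 4 single-cell libraries (10x Genomics 3′ v3) were used as deposited: whole counts per gene and called cell, made by the authors with Cell Ranger on mm10 and neither normalized nor filtered. The submitters' notes give Cell Ranger 2.1.1 and the matrix headers 3.0.2. Gene positions came from GENCODE on the same build. The members and gene lists were chosen with earlier results of these data known.

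Cells were filtered and selected by the stated rule. Counts were summed per library and cell group and tested with edgeR 4.0.16 (R 4.3.3; robust quasi-likelihood, filterByExpr, TMM), with Benjamini-Hochberg adjustment over all genes of a comparison. CCI against sham had no covariate, *Comp* against *Oprk1* neurons and the interactions had library, and sex had surgery. A gene was called at an adjusted p below 0.05 and an absolute log2 change above 0.5. SE is the log2 change over the root of F. Named genes were the 12 largest changes each way (5 each way for interactions, sex and Sprr1a-high cells) among called genes with 1 direction in all library pairs and at least 10 CPM in the higher group, passing over predicted and rule genes, together with list members. A gene with 0 UMIs in members lies below 0.135 to 0.226 CPM (3 UMIs).

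Scrublet in scanpy 1.11.5 marked 123 of 23691 cells by its automatic threshold, 121 of them in Female-Sham, so doublets were not removed and the 15% highest scores were left out as an alternative. Members were clustered with scanpy on 1500 variable genes, 15 components and a resolution of 0.5. Alternatives were DESeq2 1.42.0, no filter, RLE scaling, sex as a block, each library left out, stricter limits on *Sprr1a*, the 6 genes, UMIs, mitochondrial share and doublet score, no condition on *Comp* or *Oprk1*, and thinned cells. Leaving out SGC-rich members and members of the *Mrgpra3* or *Mrgprd* clusters was added after seeing the data. The tests were checked on simulated data. Some genes are not reported here.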

Additional observations from a re-analysis of the deposited data

Results flagged for a closer look

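The results listed here had a CCI change that differed between *Comp* neurons and another cell group by the interaction term of edgeR. They are the named genes of the 2 interaction tests, given as the log2 CCI change of *Comp* neurons minus that of the other group.

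Against *Oprk1* neurons the difference was 9.91 for *Rgs5*, where *Oprk1* neurons had 0 UMIs in both CCI libraries and the fitted value is no bound, 3.61 for *Rarres1*, 2.97 for *Paqr5*, 2.21 for *Tmem45b* and 1.99 for *Lypd1*. *Rarres1* was at 22.1, 20.5, 14.2 and 13.4 CPM in *Comp* neurons and 14.1, 16.3, 0.702 and 0.872 CPM in *Oprk1* neurons, and *Lypd1* at 14.7, 11.5, 13.4 and 15.3 CPM and 12.3, 7.52, 2.46 and 2.91 CPM. It was -3.48 for *Nxph4*, -2.78 for *Fam19a1*, -2.47 for *Rasgrf2*, -2.44 for *Adcy1* and -2.31 for *Creg2*. *Creg2* was at 14.6, 13.6, 14.7 and 13.3 CPM in *Comp* neurons and 2.23, 1.73, 14.8 and 5.52 CPM in *Oprk1* neurons, and *Adcy1* at 4.13, 4.27, 3.89 and 4.22 CPM and 2.01, 1.83, 13.0 and 7.56 CPM. In these 5 genes the *Oprk1* neurons of both CCI libraries, 45 and 72 cells, were above those of both sham libraries. *Rgs5*, *Rarres1* and *Fam19a1* were called in all 8 alternatives run for this test.

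Against other neurons the difference was 1.28 for *Ppm1j*, 1.18 for *Trpa1*, 1.17 for *Wfdc2*, 1.12 for *Sstr2* and 0.90 for *Fam222a*. *Wfdc2* is a leading gene of cluster 8 of the members, and without clusters 4, 8 and 9 its difference was -0.086 (adjusted p = 0.978). *Ppm1j*, a protein phosphatase, was at 12.3, 15, 30.3 and 26.0 CPM in *Comp* neurons and 125, 107, 107 and 91.6 CPM in other neurons. It was -1.29 for *Gadd45a*, -1.27 for *Sema6a*, -1.27 for *Tnfrsf12a*, -1.23 for *Phgdh* and -1.22 for *Dnase1l3*. The part that the selection by rule genes had in these lower changes was not tested. *Phgdh*, an enzyme of serine synthesis, was at 6.17, 7.20, 4.04 and 4.30 CPM in *Comp* neurons and 9.99, 12.3, 15.8 and 17.5 CPM in other neurons.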

How the results depend on the processing

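With 2 libraries a surgery, the number of calls depended on the tool, the filter and single libraries. For CCI against sham, 444 genes were called in the report and 266 with DESeq2, 235 with 0 *Sprr1a* UMIs, 17 with the rule read on cells thinned to 5000 UMIs (83 cells, so fewer genes and UMIs were tested) and 888 with no condition on *Comp* or *Oprk1* (more cells), while leaving out 1 library gave 175 to 615, with 175 without Female-CCI. *Comp* against *Oprk1* neurons stayed within 1225 to 1728 in all 13 alternatives, and leaving out 1 library gave 1359 to 1528. The interaction with *Oprk1* neurons gave 21 with DESeq2, 141 without the filter and 29 to 72 with 1 library left out (29 without Male-Sham, 30 without Female-CCI). The interaction with other neurons gave 37 with DESeq2, 198 without the filter and 20 to 203 (20 without Male-Sham, 25 without Female-Sham, 203 without Male-CCI). Sex gave 8 with DESeq2, 115 without the filter and 5 with no surgery term, and Sprr1a-high cells 695 with DESeq2. The other causes of these moves were not tested.

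Male with male and female with female as a replicate block gave 645 calls for CCI against sham, 440 of them among the 444, and with only 2 pairs the numbers were not taken to pair the libraries. The share ratio over all cells, 0.718, was 0.170 with 0 *Sprr1a* UMIs, 0.792 without high doublet scores, 0.543 with no condition on *Comp* or *Oprk1*, 0.581 at 5% mitochondrial UMIs and 0.767 without the clusters led by *Mrgpra3* or *Mrgprd*. The ratio among low-Sprr1a cells, 1.45, was 0.902, 1.53, 1.10, 1.39 and 1.55 under these, and 1.58 on thinned cells. Without these clusters *Mrgpra3* against *Oprk1* neurons turned to -3.35 (adjusted p = 0.0821) and *Wfdc2* in the interaction with other neurons to -0.086, both leading genes of the clusters left out. Of the named genes, 1 of 24 for CCI, 3 of 10 in each interaction, 0 of 10 for sex and 9 of 10 for Sprr1a-high cells kept their call in every alternative. Against *Oprk1* neurons 20 of 24 kept it wherever their direction held. Of these 20, *Mrgpra3* turned in 1 alternative and was not called there. None but *Mrgpra3* and *Wfdc2* turned.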

Other observations

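Cells with the 6-gene pattern and low *Sprr1a* that had both *Comp* and *Oprk1*, 209 in all, or neither, 1534 in all, stand outside the rule and are given as values without a test. Cells with both had *Calca* at 21971, 19582, 22028 and 21255 CPM and *Tac1* at 8677, 7894, 7973 and 8714 CPM, against 21421, 21521, 19278 and 20119 CPM and 7856, 8113, 7007 and 8520.0 CPM in *Oprk1* neurons. Their *Gng8* was at 82.6, 65.5, 53.2 and 37.7 CPM and their *Asic3* at 73.2, 61.1, 60.1 and 52.4 CPM, in each library above the 24.4 to 35.2 CPM and 21.2 to 46.8 CPM of *Oprk1* neurons. *Mrgpra3* was at 0.624 CPM in Male-Sham and 0 UMIs in the other 3 libraries in cells with both, and at 72.6, 57.1, 49.9 and 35.3 CPM in cells with neither. Cells with neither had *Npy1r* at 86.1, 97.8, 164 and 205 CPM against 46.2, 59.8, 77.6 and 107 CPM in *Comp* neurons.

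*Pirt*, whose locus drives the sorting marker, was at 761, 759.6, 758 and 799 CPM in *Comp* neurons, 905, 909, 954 and 1005 CPM in *Oprk1* neurons and 501, 501, 494 and 501 CPM in other neurons. *Trpa1* was at 8.53, 20.7, 43.0 and 65.0 CPM in cells with both and at 15.6, 18.9, 43.2 and 78.6 CPM in cells with neither, with both CCI libraries above both sham libraries in each, as levels without a test.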
